A study of Mus musculus with 6 samples.

Results

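The genes described here are 10 mouse genes: Star, Tspo, Cyp11a1, Fdx1, Fdxr, Hsd3b1, Cyp21a1, Por, Cyb5a and Hsd17b4. All but Hsd17b4, a peroxisomal oxidation enzyme, bring cholesterol into adrenal mitochondria, turn it into steroid hormone, or carry electrons for that work. A gene was taken as measured where a probe set of the array carried its symbol and no other, and 8 of the 10 were, by 11 probe sets among 12422 that were not controls. Fdxr, the reductase that hands electrons to the ferredoxin Fdx1, and Por, the reductase of microsomal P450 enzymes, had no such probe set and are not analysed further. The arrays were Affymetrix arrays of total RNA from adrenal glands of male mice aged 12 weeks: 3 of the hypertensive strain BPH and 3 of the hypotensive strain BPL, lines going back to Schlager's selection for blood pressure. The comparison asks whether transcripts of steroid synthesis differ between the adrenals of the strains. Nothing in the labels ties each array to its own animal, so the p-values measure only how these samples spread, which may be technical in part.

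Steroid synthesis in the adrenal cortex starts when cholesterol crosses to the inner mitochondrial membrane, a step that depends on the protein Star. There Cyp11a1 cleaves the side chain and yields pregnenolone, using electrons that pass from Fdxr through Fdx1. Hsd3b1 then makes progesterone, and Cyp21a1, in the endoplasmic reticulum, adds the 21-hydroxyl group on the way to corticosterone and aldosterone, with electrons from Por. Tspo is a cholesterol-binding protein of the outer mitochondrial membrane, Cyb5a is the microsomal cytochrome b5, and Hsd17b4 is a peroxisomal enzyme of fatty acid and steroid oxidation.

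Of the 6 member probe sets that moved together over the arrays, those of Cyp11a1, Hsd3b1 and Fdx1 belong to genes with a transcription start in the RefSeq promoter table of GRCm38.p6, which held 5 of the 10 genes. The 250 bases before each of these starts are shown for that reason, written 5' to 3' on the gene's strand. Capitals mark every match, on either strand, to 4 motifs. These were the half-site of the steroidogenic factor NR5A1 and related receptors, spelled AAGGTCA, the promoter box near many starts, spelled TATAAA, the cAMP response element, spelled TGACGTCA, and the Sp1 site, spelled GGGCGG. None of the 4 spellings contains another.

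Cyp11a1, upstream start, chr9:57997774-57998023, plus strand: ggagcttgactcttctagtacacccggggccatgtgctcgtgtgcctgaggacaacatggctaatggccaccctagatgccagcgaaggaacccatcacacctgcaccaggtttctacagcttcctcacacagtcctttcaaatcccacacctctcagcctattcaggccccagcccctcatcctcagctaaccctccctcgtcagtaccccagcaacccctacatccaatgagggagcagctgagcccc

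Cyp11a1, downstream start, chr9:58014702-58014951, plus strand: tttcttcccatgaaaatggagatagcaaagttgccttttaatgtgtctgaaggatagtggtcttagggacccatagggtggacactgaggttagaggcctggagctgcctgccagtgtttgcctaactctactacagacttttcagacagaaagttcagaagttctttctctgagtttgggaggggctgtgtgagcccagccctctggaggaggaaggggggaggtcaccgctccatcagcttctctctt

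Hsd3b1, chr3:98859795-98860044, minus strand: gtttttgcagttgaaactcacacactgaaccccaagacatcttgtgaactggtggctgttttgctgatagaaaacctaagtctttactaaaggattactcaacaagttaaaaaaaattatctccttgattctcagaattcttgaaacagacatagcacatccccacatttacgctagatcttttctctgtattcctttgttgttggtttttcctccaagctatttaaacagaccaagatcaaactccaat

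Fdx1, chr9:51963603-51963852, minus strand: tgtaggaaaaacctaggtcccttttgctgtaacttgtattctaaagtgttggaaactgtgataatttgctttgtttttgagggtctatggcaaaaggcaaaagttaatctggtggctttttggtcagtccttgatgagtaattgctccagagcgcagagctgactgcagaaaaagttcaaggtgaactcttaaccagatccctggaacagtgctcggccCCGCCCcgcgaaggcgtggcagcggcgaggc

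The only match in these 4 windows was 1 Sp1 site in Fdx1, beginning 31 bases before the start. Its GGGCGG letters lie on the strand opposite to the gene, so that the printed strand shows their reverse complement in capitals. Over the same window in all 32851 promoters of the table, 32.7% held the Sp1 letters, 12.4% the letters TATAAA, 4.08% the NR5A1 half-site and 1.55% the cAMP response element. A match is a description of the letters, and a window without one says only that those letters are not in it.

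The measured members were among the brightest transcripts of the gland in both strains, and none of them passed the test for a strain difference. Counted from the brightest of 12422 probe sets by mean log2 signal over the 6 arrays, Fdx1 was at rank 1, Cyp21a1 at 2, Hsd3b1 at 9, Star at 18, Cyp11a1 at 26 and Tspo at 61. The second probe sets of Hsd3b1 and Star were at ranks 400 and 633, Cyb5a was at 404 and Hsd17b4 at 821. A rank gives a probe set's place in the signal range and does not compare amounts of different RNAs, since probe sets differ in how well they bind. A second Fdx1 probe set was at rank 10856 and, like the dimmest 40% of probe sets, was not tested. The signal unit is the authors' MAS5 intensity after each array's median had been set to 1040.

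Of the 10 member probe sets tested, 0 were called by limma at an adjusted p under 0.05, and 1 had an unadjusted p under 0.05. Over all 7453 tested probe sets 4.11% were called, 3.18% as higher and 0.926% as lower in BPH. An unadjusted p under 0.05 was reached by 20.6% of them. With the authors' own scaling 66.3% of all calls were higher in BPH, against 77.5% here. The difference was above 0 for 9 of the 10 members, against 60.5% of all tested probe sets, and its median was 0.17 on the log2 scale, against 0.08 over all. These members are not independent of each other, as the array-by-array values show. The 621 probe sets of the brightest 5% had a median difference of 0.17 as well. The call would have needed a log2 difference of 0.65 to 0.91, depending on the probe set, given the spread of these arrays.

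**Figure D1:**
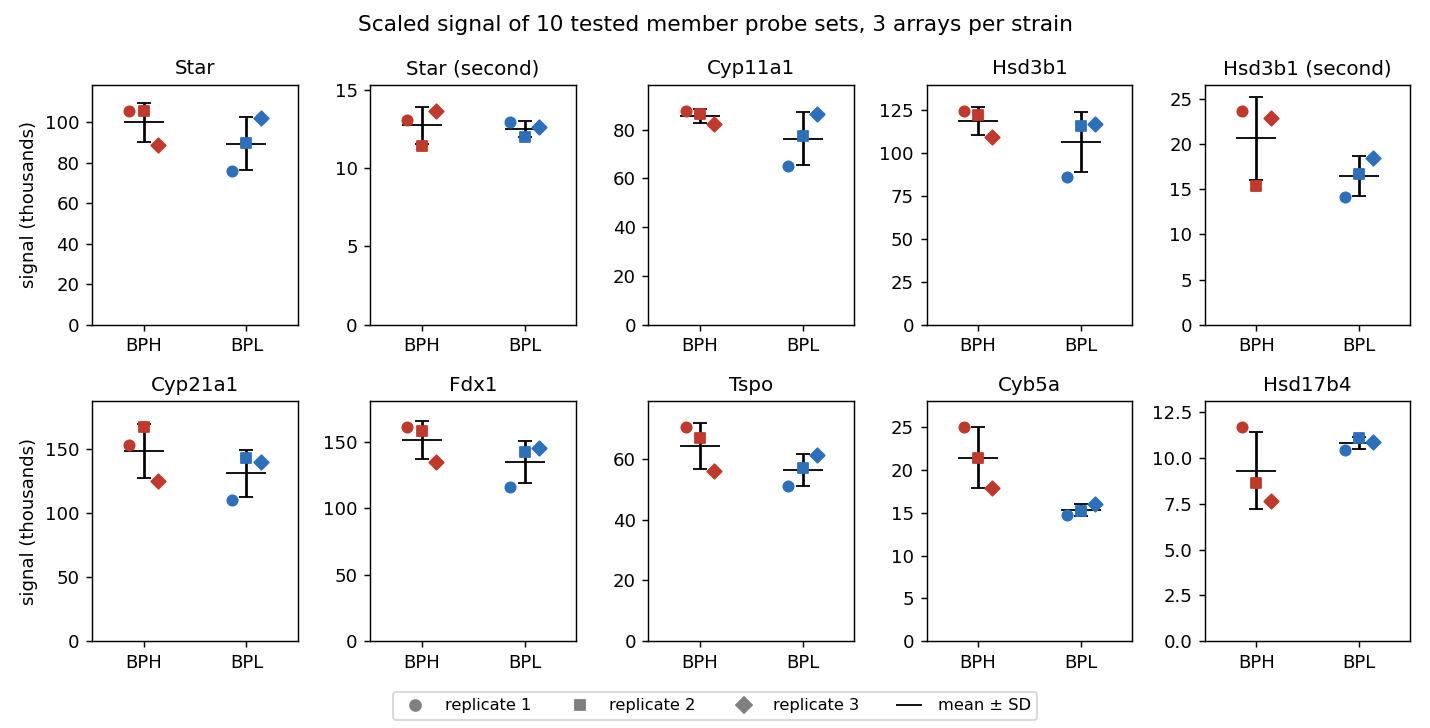
Scaled MAS5 signal (y axis, from 0, in the multiple its label gives) of the 10 tested probe sets, BPH arrays left in red and BPL arrays right in blue, with the mean and SD of 3 arrays in black and marker shape giving the replicate. The strains overlap in every panel but that of Cyb5a, where the lowest BPH array, at 17879, lies above the highest BPL array, at 15996.

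Star, whose protein limits the rate at which cholesterol enters mitochondria, had signals of 105639, 105295 and 88719 in BPH replicates 1, 2 and 3, against 75933, 89753 and 102059 in BPL replicates 1, 2 and 3. The groups overlapped, and BPL replicate 1 was the lowest array. The log2 difference was 0.17 ± 0.17 (SE, limma adjusted p = 0.605), with a 95% interval of -0.22 to 0.56. The second probe set, of a type whose suffix marks probes shared within a gene family, had 13090, 11400 and 13657 in BPH, against 12962, 11948 and 12589 in BPL. Its log2 difference was 0.02 ± 0.15 (SE, limma adjusted p = 0.95), and its arrays did not follow those of the first probe set.

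Tspo had signals of 70430, 66844 and 55906 in BPH, against 50933, 57054 and 61286 in BPL. BPH replicates 1 and 2 were above every BPL array, and BPH replicate 3 was below the BPL replicates 2 and 3. The log2 difference was 0.19 ± 0.16 (SE, limma adjusted p = 0.54). Tspo is also made by macrophages and fat cells. The summed signal of 5 macrophage markers (Cd68, Csf1r, Lyz2, Adgre1 and Cd14) was 10173 to 12594 in BPH and 7559 to 8882 in BPL, with 0 of the 4 tested markers called by limma and 3 at an unadjusted p under 0.05. Its part in the Tspo values was not tested.

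Cyp11a1, the side chain cleavage enzyme, had signals of 87756, 86463 and 82329 in BPH, against 64980, 77520 and 86475 in BPL. The BPH arrays lay close together, and BPL replicate 3 fell within their range. The log2 difference was 0.17 ± 0.16 (SE, limma adjusted p = 0.571), with a 95% interval of -0.19 to 0.54. Fdx1, the ferredoxin that feeds it, had 161138, 158363 and 134836 in BPH, against 116348, 142688 and 145384 in BPL. BPH replicate 3 was below BPL replicates 2 and 3, and the log2 difference was 0.17 ± 0.16 (SE, limma adjusted p = 0.584).

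Hsd3b1, which oxidises pregnenolone to progesterone, had signals of 124628, 122159 and 109234 in BPH, against 86175, 115717 and 116815 in BPL. BPL replicate 1 stood below the other 5 arrays, and the log2 difference was 0.17 ± 0.17 (SE, limma adjusted p = 0.605). The second Hsd3b1 probe set, again of the gene family type, had 23716, 15383 and 22862 in BPH, against 14100, 16713 and 18490 in BPL. Here BPH replicate 2 was low, and the log2 difference was 0.31 ± 0.21 (SE, limma adjusted p = 0.427). Mice carry several near-identical Hsd3b genes, so signal from a paralog cannot be told apart from that of Hsd3b1 on a family probe set.

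Cyp21a1, the 21-hydroxylase, had signals of 153282, 167110 and 125471 in BPH, against 110186, 143090 and 139806 in BPL. The groups overlapped through BPH replicate 3, and the log2 difference was 0.18 ± 0.18 (SE, limma adjusted p = 0.599), with a 95% interval of -0.23 to 0.59. The suffix of its probe set marks probes shared by similar transcripts, and a near-identical pseudogene of Cyp21a1 exists in mice, so the value is uncertain in that respect. The highest deposited signal of any probe set was 145278 to 157992 on the BPH arrays and 151199 to 172631 on the BPL arrays. These are values before the medians were set equal, so they are not on the scale of the signals above. By mean log2 signal Fdx1 was at rank 1 and Cyp21a1 at rank 2, so both lay near the top of the measured range. Whether signals there are compressed was not tested.

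Cyb5a, the cytochrome b5 that can pass an electron to microsomal P450 enzymes, was the 1 member whose strains did not overlap. Its signals were 24978, 21334 and 17879 in BPH, against 14685, 15210 and 15996 in BPL. The means were 21397 ± 3550 in BPH and 15297 ± 660.0 in BPL (SD, n = 3), so the spread lay mostly within BPH. The log2 difference was 0.47 ± 0.17 (SE, limma unadjusted p = 0.023, adjusted p = 0.174), a fold of 1.38 with a 95% interval of 1.06 to 1.80. Among all tested probe sets 27.6% had groups that do not overlap, 19.7% with BPH higher, so 1 member in 10 is not above the background.

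Hsd17b4 was the 1 member with a difference below 0. Its signals were 11671, 8614 and 7636 in BPH, against 10420, 11075 and 10881 in BPL. The BPL arrays lay close together, and BPH replicate 1 was above them while BPH replicates 2 and 3 were below. The log2 difference was -0.23 ± 0.18 (SE, limma adjusted p = 0.503), with a 95% interval of -0.65 to 0.19. It was -0.40 without BPH replicate 1 and -0.10 without BPH replicate 3. The summed signal of 5 fat markers was likewise high in BPH replicate 1 and low in the other BPH arrays, at 190516, 132099 and 136872 in BPH replicates 1, 2 and 3, against 185320, 184301 and 172475 in BPL replicates 1, 2 and 3. The fat markers did not all run this way: Retn had 20337, 20865 and 23379 in BPH, against 9540, 7973 and 16025 in BPL. Their part in the Hsd17b4 values was not tested.

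Across all 10 tested member probe sets, the 95% intervals ran from a fold of 0.636 to one of 1.80 for BPH over BPL. Every one of them left out a 2-fold difference in either direction, and 9 of the 10 included no difference. A p above the threshold does not show that the strains are alike.

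**Figure D2:**
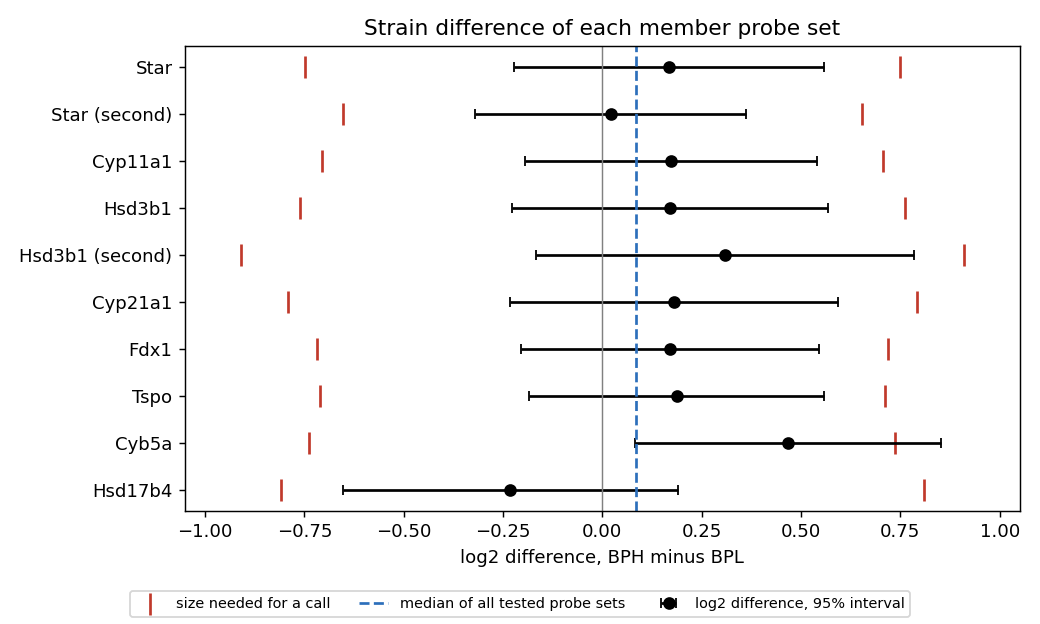
Log2 difference, BPH minus BPL (x axis), of each tested member probe set (rows), with its 95% interval from limma, the size that a call would have needed (red ticks) and the median of all 7453 tested probe sets (dashed blue line, 0.08). Of the 10 points 9 lie right of 0, Hsd17b4 lies left of it, and no point reaches its red tick.

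The probe sets of Star, Cyp11a1, Hsd3b1, Cyp21a1, Fdx1 and Tspo were high and low on the same arrays, a grouping made after the values were seen and given with no test. Their log2 differences between the strains were all between 0.17 and 0.19. Each array's departure was taken as its log2 signal minus the probe set's own mean, averaged over Star, Cyp11a1, Hsd3b1 and Cyp21a1. This mean departure was 0.15, 0.17 and -0.06 in BPH replicates 1, 2 and 3, against -0.33, -0.0055 and 0.08 in BPL replicates 1, 2 and 3. BPL replicate 1 was thus the lowest array for all 6 genes, and the strains overlapped. Without it the log2 difference was 0.06 for Star and Cyp11a1, 0.03 for Hsd3b1, 0.07 for Fdx1 and 0.12 for Tspo. The root mean square distance from this pattern over the 6 arrays was 0.03 for Fdx1 and 0.06 for Tspo, neither of which went into the mean, against 0.19 for Cyb5a, 0.22 for the second Star probe set, 0.25 for the second Hsd3b1 probe set and 0.27 for Hsd17b4.

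**Figure D3:**
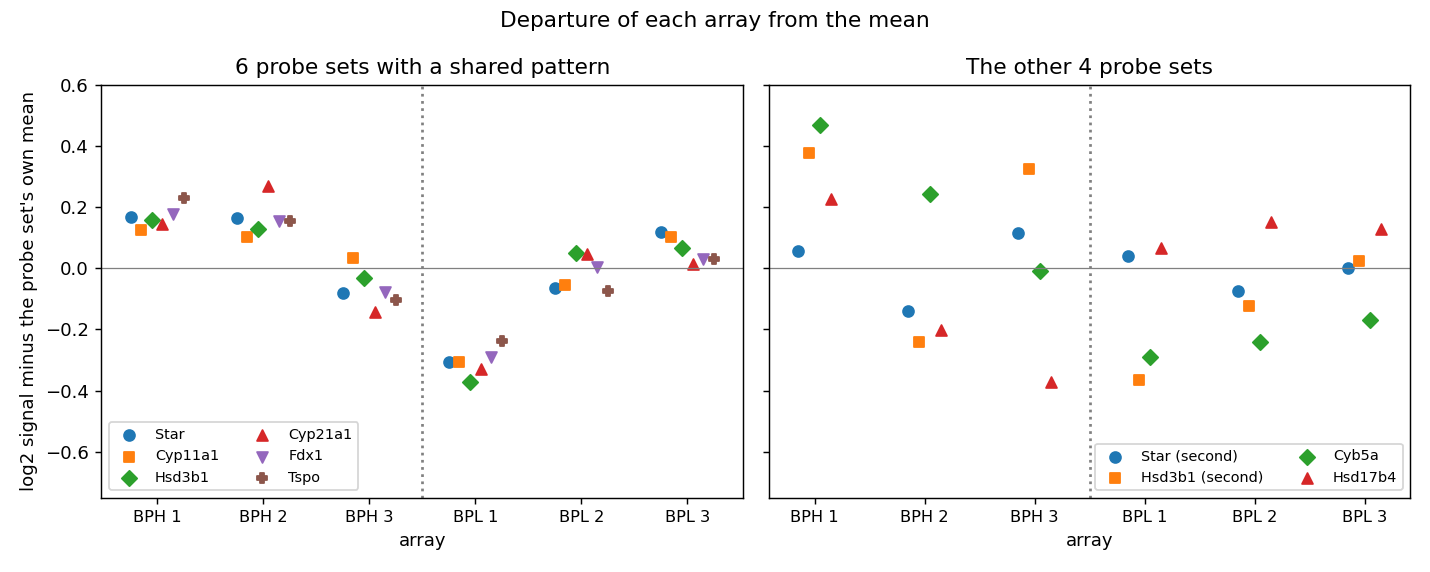
Log2 signal of each array minus the probe set's own mean over the 6 arrays (y axis), by array (x axis, BPH left of the dotted line), for the 6 probe sets that vary together (left panel) and the other 4 tested (right panel). In the left panel all 6 are lowest in BPL replicate 1. In the right panel Cyb5a and the second Hsd3b1 probe set are lowest there too, which makes 8 of the 10, and 8 of the 10 are highest in BPH replicate 1.

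The ratio of one member to the others within an array leaves out anything that scales a whole array. Fdx1 relative to the mean of the 4 genes varied by 0.08 on the log2 scale over all 6 arrays, and Cyp21a1, the most variable of the 6 genes, by 0.25 relative to the other 3. For Star, Cyp11a1, Hsd3b1 and Cyp21a1 the strain difference of this log2 ratio lay between -0.0071 and 0.01. Each was set against the other 3, so these values only restate how close together their log2 differences between the strains lay. Cyb5a relative to the 4 genes, centred on its mean, was at 0.32, 0.08 and 0.05 in BPH replicates 1, 2 and 3, against 0.04, -0.24 and -0.24 in BPL replicates 1, 2 and 3. The strains did not overlap in this ratio either, though BPH replicate 3 and BPL replicate 1 nearly met, and its mean was 0.29 higher in BPH. Hsd17b4 relative to the same genes was at 0.08, -0.37 and -0.32 in BPH, against 0.40, 0.16 and 0.05 in BPL, with BPH replicate 1 inside the BPL range.

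The size of the shared departure depended on the scaling. Which scaling left it nearer to the RNA amounts was not tested. Setting the array medians equal multiplied BPH replicates 1, 2 and 3 by 1.10, 1.06 and 0.976, against 0.909, 0.999 and 0.981 for BPL replicates 1, 2 and 3. With the authors' own scaling the mean departure of the 4 genes ran from -0.19 in BPL replicate 1 to 0.11 in BPL replicate 3, a range of 0.29 log2 units in place of 0.50. The log2 difference was then 0.05 for Star, Hsd3b1 and Fdx1, 0.06 for Cyp11a1 and Cyp21a1, and 0.07 for Tspo. It was 0.35 for Cyb5a and -0.35 for Hsd17b4, and 0 members were called by limma. The median of all tested probe sets moved with it, to -0.02 in place of 0.08, and the members' median to 0.06 in place of 0.17. The distance between these medians depended on the setting: the members' median was 0.0292 against -0.0003 over all probe sets after quantile normalization, and 0.0616 against 0.0554 without BPL replicate 1.

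**Figure D4:**
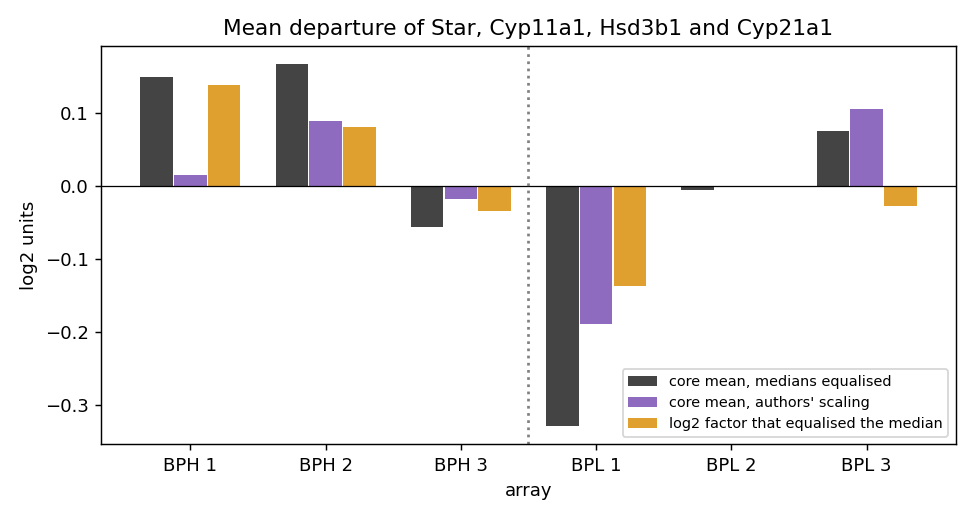
Mean departure of Star, Cyp11a1, Hsd3b1 and Cyp21a1 by array (x axis, BPH left of the dotted line), in log2 units (y axis), after array medians were equalised (dark bars) and with the authors' scaling (purple), beside the log2 of the factor that equalised the median (orange). BPL replicate 1 is the lowest array under both scalings, at -0.33 and -0.19, and also has the lowest factor.

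The genes outside the members whose arrays lay nearest to this pattern were sought among tested probe sets that varied at least as much as it did, 5005 of 6634. The RNA helicase Ddx24 was nearest, with a root mean square distance of 0.02 on the log2 scale over 6 arrays, followed by Tex261 at 0.03 and the trafficking receptor Kdelr1, the ribosomal protein Rps18 and the trafficking complex subunit Trappc2l at 0.04 each. Ddx24 had signals of 3283, 3404 and 2828 in BPH, against 2319, 2991 and 3251 in BPL. None of the 5 is known as a gene of steroid synthesis, and none was called by limma (adjusted p from 0.533 to 0.651). Their nearness to the pattern is a description over 6 arrays that share one scaling.

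Markers of tissues other than cortex were measured on the same arrays. The cortical markers outside the members that were measured were Nr5a1, Nr0b1, Mc2r, Mrap and Scarb1, 5 of 7 listed. They summed to 160800 to 182494 in BPH and to 107853 to 140643 in BPL, and 1 of the 5, Mrap, was called higher. Scarb1 was the brightest of the 5, at means of 96656 in BPH and 72374 in BPL. All 5 had a log2 difference above 0, and 4 had an unadjusted limma p under 0.05. Over all tested probe sets 3.18% were called higher, 0.926% were called lower and 20.6% had such a p. Of 8 measured medullary markers, 7 were tested and 3 were called higher, with sums of 281118 to 378059 in BPH and 160315 to 256063 in BPL. Of 9 skeletal muscle markers 7 were called lower, with sums of 3802 to 4419 in BPH and 24386 to 329795 in BPL, the highest being in BPL replicate 2. Fat markers summed to 132099 to 190516 in BPH and 172475 to 185320 in BPL, liver markers to 999 to 7365 in BPH and 1234 to 29049 in BPL, and endothelial markers to 8772 to 9715 in BPH and 6469 to 8854 in BPL. No marker was at 0, since MAS5 gives every probe set a positive signal. The Gapdh control probe sets at the 3' and 5' ends gave a log2 ratio (3' over 5') of 0.08, 0.21 and 0.21 in BPH, against -0.03, 0.06 and -0.03 in BPL. The same ratio for the Actb controls was larger, at 0.942 to 1.247 in BPH and 0.789 to 0.895 in BPL. For both controls every BPH array lay above every BPL array. The part of these tissues and of RNA quality in the members' values was not tested, and in whole glands fewer cells of a type and less RNA per cell cannot be told apart. Leaving out BPL replicates 1 and 2, which carried the most muscle signal, left 1 BPL array, assumed to vary like the BPH arrays, so only the values are given. With these arrays the log2 difference was -0.04 for Star, -0.02 for Cyp11a1 and 0.02 for Hsd3b1. It was 0.05 for Fdx1, 0.06 for Tspo, 0.08 for Cyp21a1, 0.40 for Cyb5a and -0.24 for Hsd17b4. The second probe sets of Star and Hsd3b1 were at 0.01 and 0.13.

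Transcription factors and signalling genes that act on the steroid genes included 4 that passed the test. Of 16 listed regulators 13 were tested, 4 were called higher, 0 lower and 9 not, and the median log2 difference was 0.44. Over all probe sets the median was 0.08 and 3.18% were called higher. Earlier results of these data were known when the list was chosen, so this comparison is no independent test of it. The cAMP-responsive modulator Crem had signals of 17005, 16875 and 15791 in BPH, against 1886, 1355 and 2413 in BPL, with no overlap. It rose by 3.04 ± 0.20 (SE, limma adjusted p = 1.63e-04), and its second probe set by 2.65. Both Crem probe sets have the same suffix as that of Cyp21a1, which marks probes shared by similar transcripts. The coactivator Cited2 rose by 1.07 ± 0.18 (SE, limma adjusted p = 0.0162), the transcription factor Cebpb by 0.96 ± 0.18 (limma adjusted p = 0.0234) and Mrap, which carries the ACTH receptor to the cell surface, by 0.92 ± 0.16 (limma adjusted p = 0.0195).

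Nr5a1, the nuclear receptor that switches on most steroid genes, gave different answers by probe set, and it and Mc2r were picked for description once their values were known. The brightest had signals of 43379, 48230 and 40992 in BPH, against 28854, 32925 and 36100 in BPL, without overlap, and a log2 difference of 0.44 ± 0.16 that was not called (limma adjusted p = 0.174). A dimmer one was called, at 1.24 ± 0.23 (limma adjusted p = 0.0234), and the third, at 0.96 ± 0.26, was not (limma adjusted p = 0.0885). The names of the called one and the third carry an added suffix letter, which that of the brightest does not. The third has the same suffix as the Cyp21a1 probe set. The ACTH receptor Mc2r differed by 0.17 ± 0.15 (limma adjusted p = 0.556). Among the others not called, Gata6 was at 0.63, Nr0b1 at 0.49, Gata4 at -0.23 and Nr5a2 at -0.35 on the log2 difference scale. A dimmer Gata6 probe set was at -0.06 and was not called either. Nr5a1, Nr0b1, Mc2r and Mrap are also in the cortical marker list. Crem was called in all 16 alternative settings, while Cited2 was called in 12, and Cebpb and Mrap in 10 each. Leaving out BPH replicate 1 or BPH replicate 2 ended the calls of Cited2, Cebpb and Mrap (limma adjusted p from 0.0531 to 0.108). Leaving out BPL replicate 1 or BPL replicate 2 ended those of Cebpb and Mrap (limma adjusted p from 0.0551 to 0.0738).

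**Figure D5:**
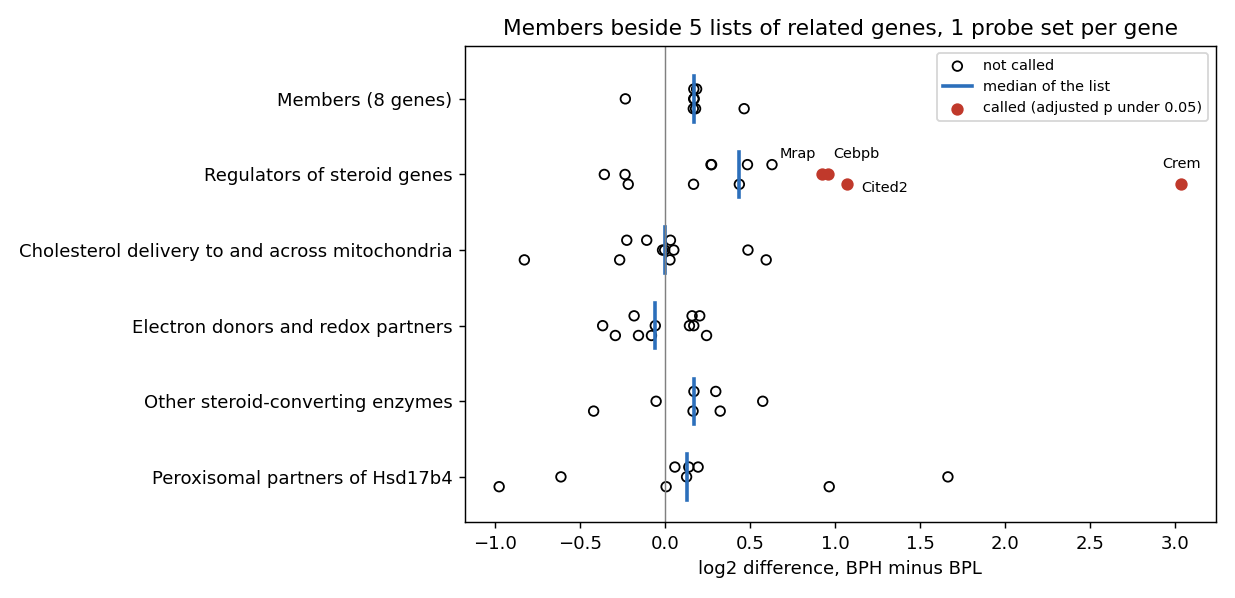
Log2 difference, BPH minus BPL (x axis), of the 8 measured members and of 5 lists of related genes (rows), 1 probe set per gene, the brightest. Filled red points passed limma at an adjusted p under 0.05, and blue lines give each list's median. All 4 calls (Crem, Cited2, Cebpb and Mrap) are in the list of regulators, while 6 of the 8 members lie between 0.17 and 0.19.

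Genes that deliver cholesterol to mitochondria or shape the import complex were not called. Of 15 listed, 11 were tested and 0 passed limma, with 2 at an unadjusted p under 0.05 and a median log2 difference of -4e-04. Npc1, which lets cholesterol out of lysosomes, had signals of 11586, 12555 and 10762 in BPH, against 5300, 8626 and 9625 in BPL, without overlap (log2 difference 0.60 ± 0.23, limma adjusted p = 0.192). Lonp1, a mitochondrial protease that degrades Star, was at 0.49 ± 0.17 (limma adjusted p = 0.159). The acyl-CoA binding protein Dbi, a ligand of Tspo, was at -0.26 ± 0.16 (limma adjusted p = 0.369), and the mitochondrial membrane ATPase Atad3a at -0.82 ± 0.37 (limma adjusted p = 0.248).

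Electron donors and other redox partners of the P450 enzymes were not called either. Of 13 listed, 11 were tested and 0 passed limma or an unadjusted p under 0.05, with a median log2 difference of -0.06. The haem-binding P450 partner Pgrmc1 was at 0.25 ± 0.17 and the NADPH-making malic enzyme Me1 at 0.21 ± 0.16. The NADPH-making dehydrogenases Idh1 and Idh2 were at -0.29 ± 0.20 and -0.36 ± 0.23 (limma adjusted p from 0.398 to 0.504 for these 4 genes).

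Of 29 other steroid-converting enzymes 16 were measured and 9 of those lay among the dimmest 40%, Cyp17a1 included, at mean signals of 260.0 in BPH and 302 in BPL. Cyp17a1 opens the androgen branch, which the adult mouse adrenal is known to lack. Of the 7 tested, 0 passed limma or an unadjusted p under 0.05, and the median log2 difference was 0.17. Hsd3b7, an enzyme of bile acid synthesis, was at 0.58 ± 0.28, Hsd17b11 at 0.33 ± 0.18, Hsd17b12 at -0.05 ± 0.16 and the sulfotransferase Sult2b1 at -0.42 ± 0.29 (limma adjusted p from 0.281 to 0.884). Cyp11b1 and Cyp11b2, which make corticosterone and aldosterone, were not represented by a probe set of their own symbol alone.

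The peroxisomal partners of Hsd17b4 ran from -0.97 to 1.66 in log2 difference, with 0 of 9 tested called by limma and 4 at an unadjusted p under 0.05, around a median log2 difference of 0.13. The racemase Amacr was at 1.66 ± 0.41 (limma adjusted p = 0.0639) and the peroxisomal transporter Abcd3 at 0.97 ± 0.22 (limma adjusted p = 0.0506). Crat, the carnitine acetyltransferase, was at -0.61 ± 0.21 (limma adjusted p = 0.154), and its dimmer probe set at -0.92 ± 0.26 (limma adjusted p = 0.0957). Ehhadh, the other bifunctional enzyme of peroxisomal oxidation, was at -0.97 ± 0.23 (limma adjusted p = 0.0554). In 8 of the 16 alternative settings 1 or 2 of these genes were called, among them 1 lower without BPL replicate 3 and 1 higher without BPL replicate 2.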

How the data were processed

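RNA was extracted from adrenal glands, made into biotin-labelled cRNA and hybridised to Affymetrix arrays, per the labels' protocols. The authors deposited a linear intensity for each probe set on each array, and the submitters' processing notes name MAS5 as the tool. Neither its version nor its settings or scaling target were stated there. Every array's mean after trimming 2% at each end was near 2501, and medians differed by up to 21.0%. All arrays were multiplied to a common median of 1040. A pseudocount of 203, the 20th percentile of signals, was added before log2, so fold changes of dim genes are understated. Probe sets among the lowest 40% by mean log2 and 66 controls were left out, leaving 7453.

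limma (version 3.58.1, R 4.3.3) compared 3 BPH with 3 BPL arrays, 2-sided, with Benjamini-Hochberg adjustment over all 7453 and 4.50 prior degrees of freedom. Array number limits the precision. Probe sets were named from the platform annotation. Named genes were every member, every called gene of 5 related lists with the 2 highest and 2 lowest others of each, and the 5 genes nearest to the mean pattern of Star, Cyp11a1, Hsd3b1 and Cyp21a1. The members and lists were chosen with earlier results of these data known. Alternatives covered scaling, pseudocount, filter, variance model, a replicate block and arrays left out. The model was tested on simulated data.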

Additional observations from a re-analysis of the deposited data

How the results depend on the processing

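No member probe set was called by limma in any of the 16 alternative settings run on the whole table, and the members' median log2 difference ran from 0.03 after quantile normalization to 0.25 without BPL replicate 3. The second Star probe set changed sign in 5 settings, at -0.094 with the authors' scaling, -0.14 after quantile normalization, -0.0016 without BPH replicate 1, -0.0317 without BPH replicate 3 and -0.01 without BPL replicate 2. Tspo did so after quantile normalization, at -0.0025. Star, at -0.0357, and Cyp11a1, at -0.0166, did so without BPL replicates 1 and 2. The cause was not tested. Over all probe sets 306 calls became 127 with no filter, 87 without BPL replicates 1 and 2, and 101 to 375 with single arrays left out. With no filter 12422 probe sets were adjusted for, and limma's standard errors changed too, for Mrap from 0.161 to 0.172. The part of each in the lost calls was not tested. Quantile normalization gave 67.3% of calls higher in BPH. The electron donors' median was -0.17 with the authors' scaling, -0.18 after quantile normalization, 0.10 without BPH replicate 3 and 0.10 without BPL replicate 2. The regulators' median was 0.19 without BPL replicates 1 and 2, and 1 regulator was called with no filter. No sign was seen that equal replicate numbers paired the arrays: the correlations of their deviations were -0.06, -0.05 and -0.18. With 3 arrays per strain the deviations are tied to each other, so these values cannot decide whether arrays were paired. With the replicate block 239 probe sets and 0 members were called. MAS5 detection calls were not used, so signal over background was not assessed.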

Other observations

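The second probe set of Fdx1, too dim to be tested, had signals of 97.7, 78.1 and 124 in BPH replicates 1, 2 and 3, against 493, 115 and 75.6 in BPL replicates 1, 2 and 3, so that BPL replicate 1, the lowest array on the bright Fdx1 probe set, was the highest on this one.

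Scp2, the sterol carrier protein of peroxisomes and part of the cholesterol delivery list, was chosen for mention after its values were seen. Its signals were 31429, 20410 and 16456 in BPH replicates 1, 2 and 3, against 24991, 26835 and 25154 in BPL replicates 1, 2 and 3. As with Hsd17b4, BPH replicate 1 was the highest array and BPH replicates 2 and 3 were the lowest (log2 difference -0.22 ± 0.23, SE, limma adjusted p = 0.615). These signals are of the brighter of 2 tested Scp2 probe sets. The dimmer one was at -0.18 ± 0.18 (SE, limma adjusted p = 0.599), and its arrays were not compared with Hsd17b4.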
